A study of Homo sapiens with 6 samples.

Results

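The transcripts described here come from the mitochondrial genome and were chosen with earlier results of these data known. The rule was by name, for genes whose symbol in the count tables begins with MT-. Of the 32029 genes listed, 16 met that rule, and they comprised 13 mRNAs, 2 rRNAs and 1 tRNA. The 16 had an Ensembl identifier each, all were matched to GENCODE 29, and all passed the filter on low counts, so no member was left out of the tests. GENCODE 29 annotates 37 genes on the human mitochondrial genome, 22 of them tRNA genes. The other 21 tRNA genes were not among the genes listed and so were not analysed here.

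The samples were cultures of SW480, an established human colorectal adenocarcinoma cell line, from which total RNA was sequenced. In 3 cultures, labelled wild type and treated with siNC, a control siRNA had been transfected (siControl), and in 3 cultures ZEB1, a zinc finger transcription factor, had been knocked down with siRNA (siZEB1). RNA was collected 48 h after transfection. The study called these biological replicates, and each sample is called a culture here, though nothing in the labels names separate cultures. All cultures belong to 1 cell line and 1 time point, and the number of siRNAs, their sequences and the passage of the cells are not given in the sources used here.

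Mitochondria keep a small circular genome of their own, which encodes subunits of the respiratory chain and of ATP synthase together with the rRNAs and tRNAs that translate them. Both of its strands are copied by the polymerase POLRMT into long transcripts that span many genes. The transcript named here for the heavy strand carries both rRNAs and nearly all mRNAs, whereas that of the light strand carries MT-ND6 and several tRNAs. The tRNAs lie between the other genes and are cut out by dedicated nucleases, which frees the mRNAs and rRNAs on either side. Levels of the mature RNAs thus depend on transcription, on cutting and on decay.

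Sequences are shown where they decide what a read count can mean. They were taken from the GENCODE 29 transcripts on GRCh38 and are given 5′ to 3′. MT-ATP8 and MT-ATP6 share 46 bases, at chrM:8527-8572 on the plus strand, and these are 22.2% of the length of MT-ATP8. In the shared stretch the capitals mark the first codon of MT-ATP6 and the last codon of MT-ATP8.
MT-ATP8 and MT-ATP6, shared bases: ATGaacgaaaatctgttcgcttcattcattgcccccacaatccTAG
The end of MT-ND4L runs into MT-ND4 in the same way, over 7 bases, shown in capitals within chrM:10748-10778 on the plus strand.
MT-ND4L into MT-ND4: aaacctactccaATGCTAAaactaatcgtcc
MT-TP, the tRNA for proline, is encoded at chrM:15956-16023 on the minus strand and is 68 bases long. It is the only tRNA measured here, and the capitals mark its anticodon.
MT-TP: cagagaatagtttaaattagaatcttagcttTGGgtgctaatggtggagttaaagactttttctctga

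Several mitochondrial genes end before their stop codon is complete, and the missing bases are supplied when the poly(A) tail is added. The final 12 bases of a few mRNAs show the difference, with the last codon or its first bases in capitals. MT-ND3, at chrM:10393-10404 on the plus strand, and MT-ND1, at chrM:4251-4262 on the plus strand, end on an incomplete codon. MT-ND4L, at chrM:10755-10766 on the plus strand, MT-CO1, at chrM:7434-7445 on the plus strand, and MT-ND6, at chrM:14149-14160 on the minus strand, end on a whole one.
MT-ND3: actgaaccgaaT
MT-ND1: ccctcaaaccTA
MT-ND4L: ctccaatgcTAA
MT-CO1: ataaaatctAGA
MT-ND6: cgggggaatAGG

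The counts summed to 19261824 to 22357633 reads per siControl culture and to 19040636 to 19349668 per siZEB1 culture. ZEB1 was at 54.2 ± 6.24 CPM (reads scaled to a common library size, mean ± SD, n = 3 cultures) in siControl and at 7.51 ± 0.843 CPM in siZEB1. Its log2 fold change was -2.85, with an SE of 0.11 and an adjusted p of 4.85e-12 by edgeR's quasi-likelihood test. Of 12 colorectal epithelial markers, 11 were listed and CDX1 was not, CDH17 and CEACAM5 held 10 or fewer reads, and the summed level of the list was 4825 to 5446 CPM in siControl and 5360.2 to 5970.2 CPM in siZEB1. Among the 9 epithelial markers tested, 4 rose and 2 fell, with EPCAM higher by 3.05 on the log2 scale and CDX2 at -1.30. The other lists stayed low, with fibroblast markers summing to 7.83 to 10.9 CPM over all cultures, endothelial markers to 1.52 to 2.73 CPM and leukocyte markers to 0.659 to 1.15 CPM, and DCN, PTPRC, CDH5 and KDR were not listed. The part of these marker changes in the mitochondrial values was not tested.

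The question put to the data was whether knockdown of ZEB1 went with a change in the RNA of the mitochondrial genome, by class and by strand. Most mRNAs fell, whereas 1 of the 2 rRNAs rose and the other was not called. Of the 13 mRNAs, 11 fell and none rose, with a median log2 fold change of -0.36 and a range of -0.61 to -0.15, while MT-RNR2, the large rRNA, rose by 0.24 and MT-RNR1, the small rRNA, stood at -0.0027 without passing the test. MT-TP fell by 0.60 on the log2 scale. Calls are from edgeR's quasi-likelihood test with an adjusted p under 0.05, and by that rule 21.2% of the 14996 genes tested fell and 19% rose, with a median of -0.0055 over all of them. For the mRNAs that fell, bulk samples cannot tell fewer mitochondrial genomes or mitochondria per cell from less RNA from each of them. A smaller share of cells rich in them cannot be told apart either. MT-RNR2 rose in the same cultures, and the part of any of these in the difference between the classes was not tested.

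Complex IV, cytochrome c oxidase, takes its 3 catalytic core subunits from this genome, and all 3 mRNAs fell. MT-CO1 was at 6419.7, 6198 and 6531 CPM in siControl replicates 1 to 3 and at 4986, 4853 and 4902 CPM in siZEB1 replicates 1 to 3. Every siZEB1 culture was below every siControl culture, and the change was -0.38 (SE 0.042, adjusted p = 2.05e-06). That gene alone accounted for 26.9% ± 0.947 (SD, n = 3) of the mitochondrial mRNA reads in siControl and 25.8% ± 0.274 in siZEB1. MT-CO3 was at 2051, 1985 and 2071 CPM against 1549, 1557 and 1469 CPM. It showed the largest fall of the 3, by 0.42 (SE 0.047, adjusted p = 2.23e-06), and its replicates were close together in both groups. MT-CO2, which carries the copper site that receives electrons from cytochrome c, had 2598, 2756 and 3041 CPM in siControl and 2281, 2301 and 2144 CPM in siZEB1. Its groups did not overlap either, and the change was -0.32 (SE 0.056, adjusted p = 0.000222).

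Complex I, NADH dehydrogenase, holds 7 subunits of mitochondrial origin, all in its membrane arm, and 6 of their mRNAs fell, with a median of -0.36 over the 7. MT-ND4L had the lowest fold change of all mRNAs, with 201, 189 and 211 CPM in siControl and 137, 122 and 133 CPM in siZEB1. The groups were far apart relative to their spread, and the change was -0.61 (SE 0.065, adjusted p = 1.05e-06). This was the 1 mRNA whose fall exceeded 1.5-fold, a size and direction reached at an unadjusted p under 0.05 by 9.35% of all genes and at an unadjusted p under 0.001 by 6.7%. MT-ND3 was at 282, 280.2 and 334 CPM in siControl and at 208, 217 and 193 CPM in siZEB1. Its change was -0.53 (SE 0.071, adjusted p = 1.39e-05), the next in size among the called mRNAs.

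MT-ND4, which shares an mRNA with MT-ND4L, went from 2619, 2709 and 3087 CPM to 2188, 2049 and 2130.3 CPM. Its change was -0.40 (SE 0.058, adjusted p = 3e-05), and its groups were separate. MT-ND4L, on the same mRNA, stood at -0.61, and the genes share the 7 bases printed above. Whether the counting dropped reads over those bases is not given in the sources used here, and its part in this difference was not tested. MT-ND5 was at 1587, 1486 and 1491 CPM in siControl and at 1304, 1222 and 1343 CPM in siZEB1, a change of -0.24 (SE 0.051, adjusted p = 0.0013). MT-ND1, the first mRNA after the rRNAs, went from 2662, 2553 and 3038 CPM to 2465, 2366 and 2272 CPM. The highest siZEB1 culture lay just under the lowest siControl culture, and the change was -0.22 (SE 0.059, adjusted p = 0.00757), or -0.14 (adjusted p = 0.0272) without siControl replicate 3.

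MT-ND2 was the complex I mRNA that did not pass the test. It was at 2574, 2245 and 2853 CPM in siControl and at 2361, 2256 and 2297 CPM in siZEB1, with all siZEB1 cultures above siControl replicate 2. The estimate was -0.15 (SE 0.066, adjusted p = 0.0805). Without siControl replicate 2 it was -0.24 and passed the test (adjusted p = 0.00536), and without siControl replicate 3 it was -0.067 (adjusted p = 0.354), so both the value and the call turned on single cultures.

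MT-CYB encodes cytochrome b, the 1 subunit of complex III made in mitochondria. It was at 1026, 1150.1 and 1255 CPM in siControl and at 957, 887 and 907 CPM in siZEB1. The groups did not overlap, and the change was -0.32 (SE 0.064, adjusted p = 0.000714).

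ATP synthase has 2 mitochondrially encoded subunits, both in the membrane part through which protons pass. MT-ATP6 fell from 972, 1034 and 1172 CPM to 891, 905 and 834 CPM, a change of -0.27 (SE 0.063, adjusted p = 0.00228). MT-ATP8 had 50, 64 and 53 reads in siControl and 35, 28 and 53 reads in siZEB1. Its groups overlapped, with siZEB1 replicate 3 level with siControl replicate 3 in reads, and the estimate of -0.39 (SE 0.233, adjusted p = 0.199) did not pass the test. Without siZEB1 replicate 3 the estimate was -0.68 (adjusted p = 0.036), and without siZEB1 replicate 2 it was -0.20 (adjusted p = 0.565). These few reads lie on a gene that shares the 46 bases printed above with MT-ATP6, and whether the counting dropped reads over shared bases is not given in the sources used here.

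**Figure D1:**
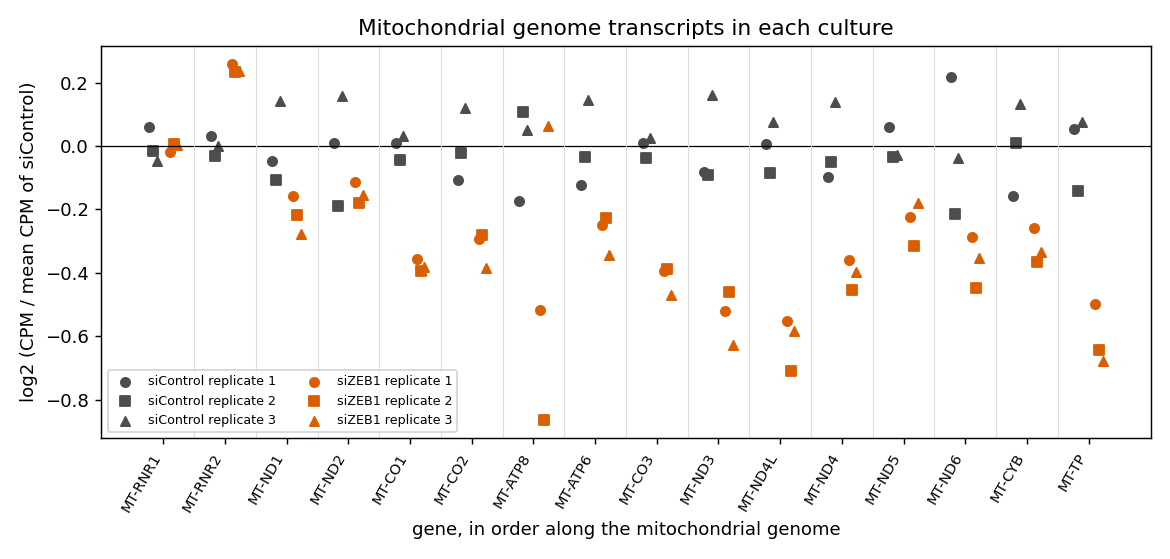
CPM of each mitochondrial transcript in each culture as log2 of its ratio to the siControl mean (y axis), by gene in order along the genome (x axis), with grey symbols for siControl, orange for siZEB1 and a shape for each replicate number. The siZEB1 symbols lie below all siControl symbols for 11 of the 13 mRNAs and for MT-TP, and above them for MT-RNR2.

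Both rRNAs lie at the start of the heavy-strand transcript, ahead of the mRNAs. MT-RNR2, the rRNA of the large subunit of the mitochondrial ribosome, had 288816, 291340 and 256581 reads in siControl and 300584, 300527 and 300110.0 reads in siZEB1. In CPM these were 13583, 13009.7 and 13309.9 against 15922, 15629 and 15680.3. All siZEB1 cultures were higher, and the change was 0.24 (SE 0.039, adjusted p = 9.1e-05), or 18.4% of the siControl mean. MT-RNR1, the rRNA of the small subunit, was at 1721, 1632 and 1599 CPM in siControl and at 1631, 1658 and 1654 CPM in siZEB1. Its groups overlapped, and the estimate of -0.0027 (SE 0.047, adjusted p = 0.969) changed sign with the scaling, reaching 0.0048 with median-of-ratios size factors. How the libraries were treated for rRNA, by poly(A) selection or by depletion, is not given in the sources used here, and its part in the rRNA values was not tested.

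The only tRNA measured, MT-TP, had 1430, 1315 and 1315 reads in siControl and 866, 796 and 775 reads in siZEB1. Scaled to the libraries, these were 67.3, 58.7 and 68.2 CPM against 45.9, 41.4 and 40.5 CPM. No siZEB1 culture came near the siControl range, and the change was -0.60 (SE 0.079, adjusted p = 1.1e-05), a fall of more than 1.5-fold. Its 68 bases are short for a standard library, so reads of the mature tRNA and reads of longer light-strand transcripts that contain it cannot be told apart.

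MT-ND6, the light-strand mRNA, encodes a further subunit of complex I. It had 4799, 3750.0 and 3646 reads in siControl and 3001, 2735 and 2911 reads in siZEB1. In CPM the values were 226, 167 and 189 against 159, 142 and 152, with siControl replicate 1 the highest, and the change was -0.36 (SE 0.086, adjusted p = 0.00289), or -0.24 (adjusted p = 0.017) without that culture. Both light-strand genes thus fell, with a median of -0.48 over the 2, and of the 12 heavy-strand mRNAs 10 fell, with a median of -0.35. The strand setting of the counting is not given in the sources used here, and without it reads of MT-ND6 and MT-TP cannot be told apart from heavy-strand RNA that runs through the same positions.

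Among all 16 transcripts, 12 fell, 1 rose and 3 were not called, against 40.2% of all genes called in either direction. The groups did not overlap for 13 of the 16, against 49.5% of all genes. With siZEB1 below siControl, this was so for 11 of the 13 mRNAs, against 25.3% of all genes. Transcripts of 1 genome share their promoters and their precursor RNAs, so the 16 are not independent of one another.

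Shares of the reads restate the same counts for each culture, summed by class. The 16 transcripts together took 3.87%, 3.75% and 4.03% of all reads in siControl and 3.66%, 3.60% and 3.63% in siZEB1. The mRNA share was 2.33%, 2.28% and 2.53% in siControl and 1.93%, 1.88% and 1.89% in siZEB1. Conversely, the rRNA share was 1.53%, 1.47% and 1.49% in siControl and 1.73%, 1.72% and 1.74% in siZEB1. The groups were separate in each of these measures, with the lower mRNA share partly offset in the total by the higher rRNA share. MT-RNR2 held on average 89.0% of the rRNA reads in siControl and 90.5% in siZEB1, so the rRNA share mostly follows that gene. The tRNA share was 0.00648% ± 0.000521 (SD, n = 3) in siControl and 0.00424% ± 0.000255 in siZEB1.

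Ratios within the mitochondrial genome do not depend on the scaling of the libraries. For every 100 mRNA reads there were 65.9, 64.3 and 59.0 rRNA reads in siControl and 90.1, 91.6 and 92.3 in siZEB1. Here the gap between groups was many times the spread within them, and the mean of siZEB1 was 1.45 times that of siControl. The 2 rRNAs also shifted against each other, with 7.89, 7.97 and 8.32 reads of MT-RNR2 per read of MT-RNR1 in siControl and 9.76, 9.43 and 9.48 in siZEB1. MT-TP reads per 100 mRNA reads were 0.273 ± 0.0159 in siControl and 0.223 ± 0.0105 in siZEB1. Each of these 3 ratios had separate groups. The treatment of the libraries for rRNA is not given, and its part in the ratios with rRNA reads was not tested.

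The balance of the strands depended on whether the rRNAs were counted. Against all heavy-strand reads, light-strand reads were at 0.672 ± 0.0825 per 100 in siControl and 0.534 ± 0.0229 in siZEB1, with separate groups. Against heavy-strand mRNA reads alone, they were at 1.27, 1.0 and 1.03 per 100 in siControl and 1.06, 0.980 and 1.03 in siZEB1. These groups overlapped, and the difference did not exceed the spread between cultures (exact permutation p = 0.7, adjusted p = 0.778). MT-ND6 alone gave 0.826 ± 0.135 and 0.799 ± 0.0349 reads per 100 heavy-strand mRNA reads (exact permutation p = 1, adjusted p = 1). Over the 10 shares and ratios tested, the 8 with separate groups each had a two-sided exact permutation p of 0.1, the smallest that 3 against 3 cultures allow, and an adjusted p of 0.125, so that none could pass a threshold of 0.05.

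**Figure D2:**
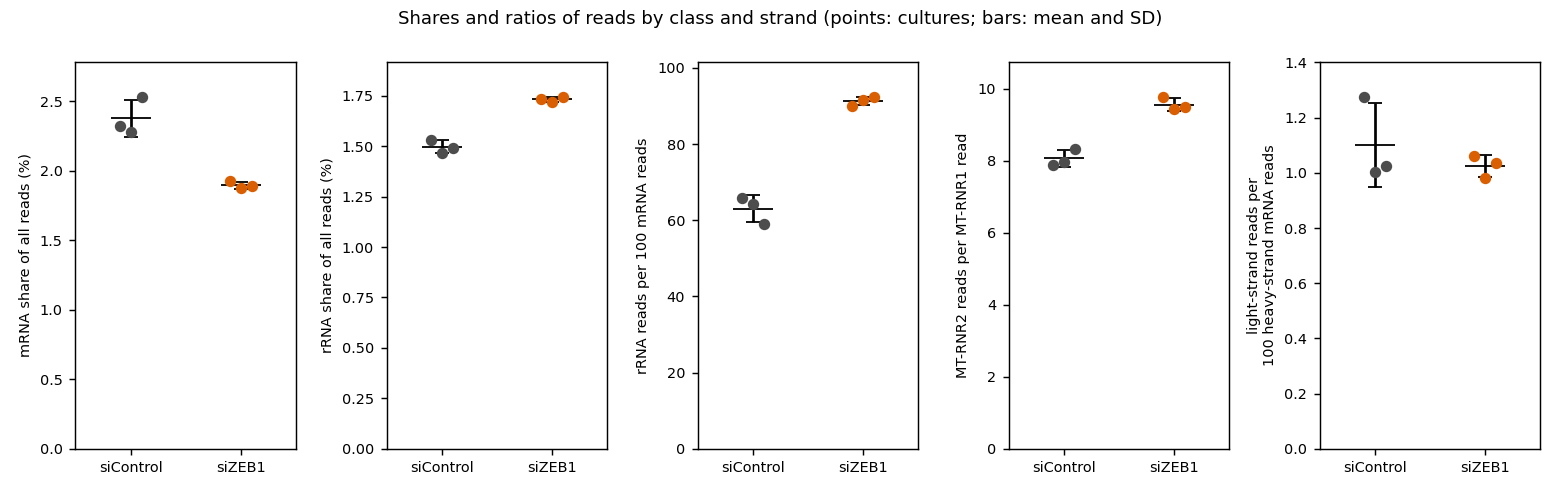
Shares of all reads and ratios of reads by class and strand (y axes, each starting at 0) in siControl and siZEB1, with points for cultures, horizontal lines for means and bars for the SD. rRNA reads per 100 mRNA reads lie at 59.0 to 65.9 in siControl and 90.1 to 92.3 in siZEB1, and light-strand reads per 100 heavy-strand mRNA reads overlap.

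To ask which transcripts moved apart from the mRNAs as a whole, edgeR's test was repeated with the sum of the mitochondrial mRNA reads as the library size. Each mRNA is itself part of that sum, MT-CO1 at 26.9% of it in siControl, so the mRNAs lie around 0 by construction. On that scale the median of all genes tested was shifted by 0.32 to 0.31, and 49.3% of all genes were called higher and 7.5% lower, so values are to be read among the mitochondrial transcripts. MT-RNR2 was higher than the mRNA total by 0.56 (SE 0.053, adjusted p = 7.97e-08) and MT-RNR1 by 0.31 (SE 0.067, adjusted p = 0.00059). MT-ND2 was higher by 0.17 (adjusted p = 0.0251). MT-ND4L was at -0.30 (adjusted p = 0.00247), MT-TP at -0.29 (adjusted p = 0.00761) and MT-ND3 at -0.21 (adjusted p = 0.019), all lower than the mRNA total. The other 10 mRNAs lay between -0.10 and 0.10 and were not called, which does not show that they moved alike. Calls on this scale were not repeated with single cultures left out.

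**Figure D3:**
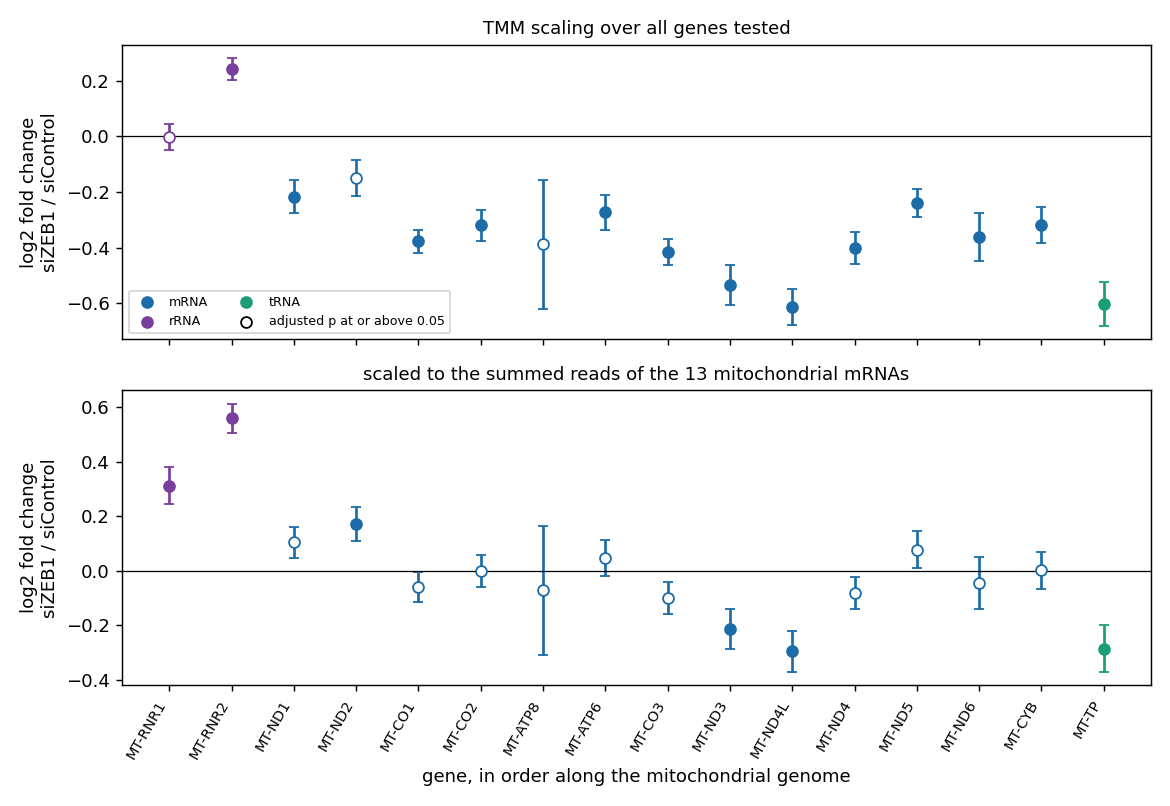
Log2 fold change of siZEB1 over siControl (y axes) for the 16 transcripts in order along the genome (x axis), scaled by TMM over all genes (upper panel) or to the summed mitochondrial mRNA reads (lower panel), with bars for the SE, colours for the class and open points for an adjusted p of 0.05 or more. In the upper panel the 13 mRNAs lie between -0.61 and -0.15 and MT-RNR2 at 0.24, and in the lower panel both rRNAs lie above 0, at 0.31 and 0.56.

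Shares of the mRNA pool express the same reads as percentages and are no separate evidence. MT-ND4L made up 0.843% ± 0.0201 (SD, n = 3) of the mRNA reads in siControl and 0.686% ± 0.0336 in siZEB1. MT-ND3 went from 1.26% ± 0.0569 to 1.08% ± 0.0617, and MT-ND2 from 10.7% ± 0.769 to 12.1% ± 0.140. Within the rRNA pool, MT-RNR1 made up 11% ± 0.276 of the reads in siControl and 9.48% ± 0.160 in siZEB1.

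Levels of different genes are compared only per length, as CPM per kilobase of the annotated gene. In siControl the order ran from MT-RNR2 at 8532 ± 184 CPM per kb through MT-CO1 at 4139 ± 110.1 and MT-CO2 at 4091 ± 328, whose ranges of 1 SD overlapped. MT-ND1 at 2877 ± 266, MT-CO3 at 2597 ± 57.3, MT-ND2 at 2454 ± 292 and MT-ND4 at 2036 ± 180.3 CPM per kb followed, each overlapping its neighbour. Below them came MT-RNR1 at 1731 ± 66.0 and MT-ATP6 at 1556 ± 150 CPM per kb, which overlapped each other. The next set, MT-CYB at 1002 ± 100.3, MT-TP at 952 ± 76.8, MT-ND3 at 864 ± 87.9 and MT-ND5 at 839.6 ± 31.3 CPM per kb, likewise overlapped from neighbour to neighbour. MT-ND4L at 674 ± 37.4, MT-ND6 at 369.7 ± 56.1 and MT-ATP8 at 12.8 ± 1.29 CPM per kb were each apart from the gene above.

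In siZEB1 the ends of the order were kept, with MT-RNR2 at 10099 ± 100.3 and MT-ATP8 at 9.79 ± 3.25 CPM per kb. MT-CO1 at 3187 ± 43.8 and MT-CO2 at 3278 ± 125 CPM per kb again overlapped, with the order of their means turned around. MT-RNR1, at 1727 ± 15.2 CPM per kb, stood above MT-ND4, at 1540.3 ± 50.5, whereas it had stood below MT-ND4 in siControl. MT-ND3 moved to 596 ± 35.0 CPM per kb, below MT-ND5 at 712 ± 34.1 and beside MT-TP at 626 ± 42.4. The neighbours MT-ATP8 and MT-ATP6, which are parts of 1 mRNA in the cell, differed widely per length in both groups. The part of their shared bases in this gap was not tested.

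**Figure D4:**
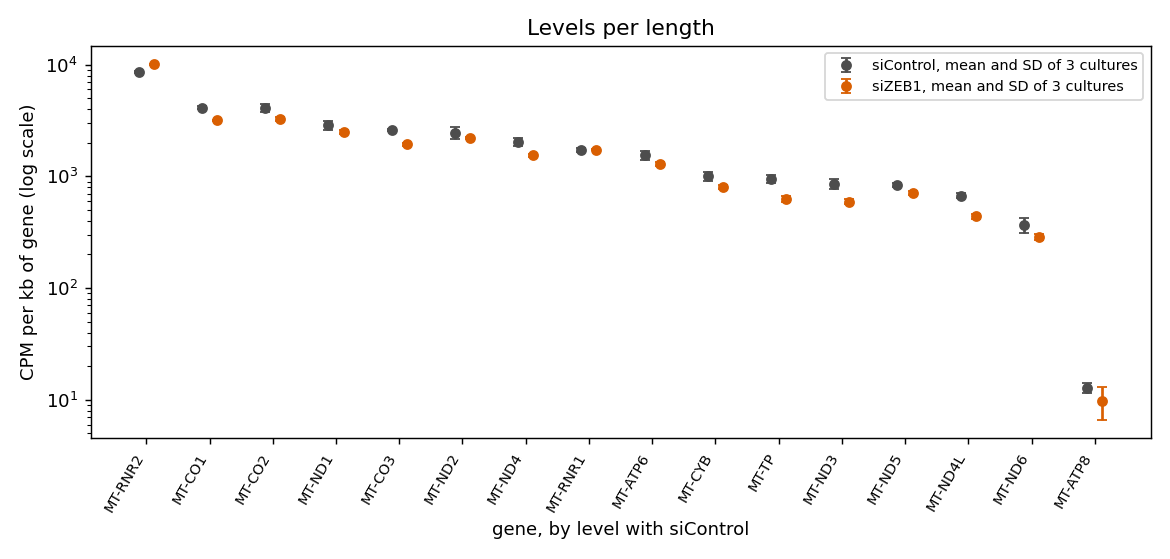
Level of each transcript per length, in CPM per kb (y axis, log scale), by gene in order of the siControl level (x axis), with points for group means and bars for the SD over 3 cultures. MT-RNR2 is the highest in both groups and MT-ATP8, at 12.8 and 9.79 CPM per kb, the lowest.

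Features of the genes themselves were set beside the fold changes as a description. The 6 mRNAs with an incomplete stop codon had a median of -0.36 and a range of -0.53 to -0.15, and the 7 with a whole one had a median of -0.36 and a range of -0.61 to -0.24, so that the ranges overlapped. The lowest member of each set, MT-ND3 and MT-ND4L, is a short gene, and across the 13 mRNAs the fold change had a Spearman correlation of 0.47 with length, or 0.45 over the 12 without MT-ATP8. With order along the heavy strand the correlation was -0.38 over 12 mRNAs. These points are genes of 1 genome, measured in the same libraries, and are not independent replicates. Base composition sets the strands apart, with 6.28% to 16.2% G in the heavy-strand mRNAs and 35.6% G in MT-ND6. The fold change of MT-ND6, at -0.36, was the median of the mRNAs. The part of base composition in the fold changes was not tested.

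The nuclear genome holds copies of mitochondrial genes, and reads can be assigned to either. Of 60 such copies listed, 2 held at least 1% of the reads of the gene they copy. MTATP6P1, a copy of MT-ATP6 on chromosome 1, had 8.45% of the reads of MT-ATP6 and matches it at 671 of 681 bases (98.5%). The first difference is G19A, counted from the first base of the gene with the base of MT-ATP6 first, and it is shown in capitals within chrM:8531-8559 on the plus strand and chr1:633700-633728 on the plus strand of GRCh38.
MT-ATP6: acgaaaatctgttcGcttcattcattgcc
MTATP6P1: acgaaaatctgttcActtcattcattgcc
MTATP6P1 went from 89.5 ± 11.2 to 74.2 ± 4.76 CPM, a change of -0.27 (SE 0.084, adjusted p = 0.0175), beside -0.27 for MT-ATP6. MTND2P28, a copy of MT-ND2 on chromosome 1 at 98.2% identity, held 5.50% of the reads of MT-ND2. It went from 147 ± 7.91 to 119 ± 8.46 CPM, a change of -0.31 (SE 0.068, adjusted p = 0.00157), whereas MT-ND2 itself did not pass the test. Whether these reads came from the nuclear copies or from mitochondrial RNA was not tested. Adding the reads of the copies to their parent genes left 11 mRNAs called lower.

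The share of a gene that is identical to a nuclear copy over a read's length shows where reads could match both exactly. Of all stretches of 100 bases, 27.9% of those in MT-CO1, 26.1% in MT-ND2, 11.9% in MT-ATP6, 11% in MT-ND1, 4.38% in MT-CO3 and 2.39% in MT-CO2 occur in a listed nuclear copy. At 150 bases these were 14.5% for MT-CO1, 15.7% for MT-ND2 and 1.12% for MT-ND1, and 0 for the others. The rRNAs and the other 7 mRNAs had none at either length, and among those 7 are MT-ND3 and MT-ND4L. Copies without such a name and inexact matches were not searched. The length of the reads is not given in the sources used here.

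Proteins that make, cut, modify and degrade mitochondrial RNA are encoded in the nucleus, and 59 such genes were followed in 6 lists. The lists were chosen with earlier results of these data known. Of these, 58 were tested, 9 rose, 16 fell and 33 were not called, with a median of -0.031, against 19% of all genes that rose, 21.2% that fell and 40.2% called in either direction. The 25 called genes are thus a share near that of all genes. Groups did not overlap for 33 of the 58, against 49.5% of all genes. The remaining gene, PPARGC1A, a coactivator of mitochondrial biogenesis, had 5, 4 and 0 reads in siControl and 0, 3 and 5 in siZEB1 and was below the filter.

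Among the 6 genes of mitochondrial transcription, 2 rose, 2 fell and 2 were not called, with a median of 0.16, beside 40.2% of all genes called. POLRMT, the polymerase, was at 132, 145 and 160.1 CPM in siControl and at 119.6, 124 and 114 CPM in siZEB1. Its groups were separate and the change was -0.29 (SE 0.072, adjusted p = 0.0038). TEFM, which keeps that polymerase on its template during elongation, had the largest change of the list, from 11.4 ± 0.255 to 7.02 ± 0.969 CPM (log2 fold change -0.70, SE 0.118, adjusted p = 0.000157). TFB2M, the initiation factor that opens the promoter, rose from 48.8 ± 3.73 to 58.1 ± 0.722 CPM (0.25, adjusted p = 0.0104), a call lost without siControl replicate 2 (adjusted p = 0.0687). TFAM, which packages the genome and bends its promoters, was at 251 ± 23.3 and 275 ± 9.61 CPM with overlapping groups (0.13, adjusted p = 0.123), and without siControl replicate 1 it passed the test at 0.21 (adjusted p = 0.0152). MTRES1, a factor that protects transcription under stress, rose from 9.26 ± 0.251 to 12.5 ± 0.355 CPM (0.44, adjusted p = 0.00209).

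The list of stability and decay held the largest single change of the 58 genes. SUPV3L1, the helicase of the mitochondrial RNA degrading complex, was at 105, 105 and 104 CPM in siControl and at 53.0, 55.2 and 54.6 CPM in siZEB1. The cultures of each group were nearly equal, and the change was -0.95 (SE 0.063, adjusted p = 4.13e-09). PDE12, which shortens poly(A) tails in mitochondria, fell from 93.2 ± 7.22 to 56.4 ± 6.30 CPM (-0.73, SE 0.083, adjusted p = 2.62e-06). GRSF1, an RNA-binding protein of mitochondrial RNA granules, fell from 188 ± 5.05 to 169 ± 4.69 CPM (-0.15, adjusted p = 0.0422), a call lost with DESeq2 (adjusted p = 0.0542), with median-of-ratios size factors (adjusted p = 0.0522), with no filter (adjusted p = 0.0795) and without siControl replicate 2 or any 1 siZEB1 culture. LRPPRC, which binds and stabilises mitochondrial mRNAs, was at 461 ± 34.4 and 461 ± 12.1 CPM, with overlapping groups and an adjusted p of 0.998. In this list 3 of 9 genes fell, GRSF1 among them, and none rose, with a median of -0.12, beside 21.2% of all genes that fell and 19% that rose.

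Of the 15 genes of RNA processing and tRNA maturation, 1 rose, 2 fell and 12 were not called, with a median of -0.027, a smaller share called than the 40.2% of all genes. TRMT10C, a subunit of the enzyme that cuts the 5′ ends of the tRNAs, fell from 44.3 ± 3.65 to 34.5 ± 0.668 CPM (-0.36, SE 0.078, adjusted p = 0.00133). MTO1, which modifies the wobble base of several tRNAs, rose from 40.5 ± 0.608 to 51.1 ± 1.44 CPM (0.34, adjusted p = 0.000804). TRNT1, which adds the CCA end to tRNAs, fell from 41.7 ± 2.35 to 35.4 ± 2.89 CPM (-0.24, adjusted p = 0.0271), a call lost without siControl replicate 1 or 2 or siZEB1 replicate 1 (adjusted p of 0.0843 to 0.172).

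Of the 10 genes for rRNA modification and ribosome assembly, 5 fell and none rose, with a median of -0.10, beside 21.2% of all genes that fell and 19% that rose. TFB1M, which methylates the small rRNA, fell from 16.4 ± 0.678 to 11.8 ± 2.09 CPM (-0.48, SE 0.115, adjusted p = 0.00321). MTERF3, a factor in assembly of the large subunit, fell from 26.2 ± 0.868 to 20.7 ± 0.337 CPM (-0.34, adjusted p = 0.00242). MRM1, a methyltransferase of the large rRNA, fell from 19.6 ± 1.88 to 16.2 ± 0.451 CPM (-0.27, adjusted p = 0.03), a call lost with DESeq2 (adjusted p = 0.0602) and without siControl replicate 3 or any 1 siZEB1 culture.

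Of the 12 genes that copy and maintain the genome, 5 rose, 2 fell and 5 were not called, with a median of 0.16, beside 19% of all genes that rose and 21.2% that fell. MGME1, a nuclease that trims the ends of replicating mitochondrial DNA, fell from 57.5 ± 2.44 to 37.4 ± 2.89 CPM (-0.62, SE 0.076, adjusted p = 5.26e-06). TK2, a kinase that supplies thymidine nucleotides, rose from 4.94 ± 1.06 to 6.98 ± 0.527 CPM (0.49, adjusted p = 0.0181), and TOP1MT, a topoisomerase, from 24.4 ± 0.852 to 32.1 ± 2.09 CPM (0.40, adjusted p = 0.000796). The call of TK2 was lost without siControl replicate 3 (adjusted p = 0.0719) or siZEB1 replicate 2 (adjusted p = 0.0729).

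The last list held regulators of nuclear genes for mitochondria, of which 1 of the 6 tested rose and 2 fell, with a median of -0.11, beside 40.2% of all genes called. PPARGC1B, a coactivator related to PPARGC1A, fell from 28.3 ± 3.11 to 15.6 ± 1.19 CPM (-0.86, SE 0.098, adjusted p = 2.6e-06). GABPA and GABPB1, the subunits of 1 transcription factor, went in opposite directions, GABPA from 43.5 ± 2.45 to 65.9 ± 4.15 CPM (0.60, adjusted p = 6.04e-06) and GABPB1 from 30.9 ± 2.76 to 26.3 ± 1.19 CPM (-0.23, adjusted p = 0.0395). The call of GABPB1 was lost with DESeq2 (adjusted p = 0.0666) and without siControl replicate 1 or siZEB1 replicate 1 or 2. Changes in the nuclear genes stand beside those of the mitochondrial RNA in the same 6 cultures, and any relation between them was not tested.

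**Figure D5:**
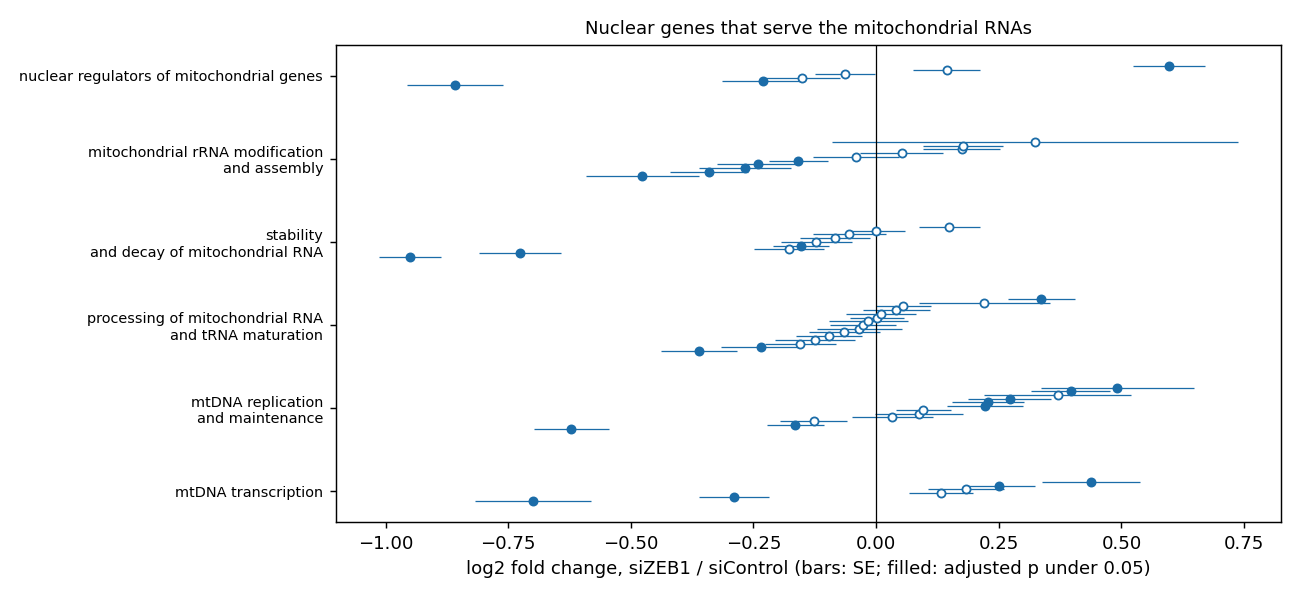
Log2 fold change of siZEB1 over siControl (x axis) for the 58 nuclear genes tested, by list (y axis), with 1 point per gene, bars for the SE and filled points for an adjusted p under 0.05. Filled points lie on both sides of 0, from SUPV3L1 at -0.95 to GABPA at 0.60.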

How the data were processed

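Per the labels, the authors extracted total RNA with Trizol, checked it on a Bioanalyzer and sequenced 3 siControl and 3 siZEB1 cultures. The authors deposited a table of read counts per gene for each culture, which hold whole numbers and were not normalized. Their processing notes name Trimmomatic, HISAT2, SAMtools, featureCounts and hg38, and versions, annotation, strand setting, read length and library type are not given in the sources used here.

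Of 32029 genes listed, the 14996 kept by filterByExpr in edgeR 4.0.16 (R 4.3.3) were scaled by TMM and tested by glmQLFit and glmQLFTest, with condition as the only term. The tests were two-sided, p-values were adjusted by Benjamini-Hochberg over the 14996 genes, and the threshold was 0.05. The SE is the absolute log2 fold change divided by the square root of F. CPM (counts per library of common size) used the same scaling, and the biological coefficient of variation was 6.58%. The 10 shares and ratios were compared by two-sided exact permutation tests of the difference in means, adjusted over the 10. Nothing in the labels names separate cultures, and p-values measure the spread between these samples only. The totals per culture, 19040636 to 22357633 reads, leave counting error small except for MT-ATP8.

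Every MT- gene was named, as were ZEB1, POLRMT, TFAM, TFB2M, TEFM and LRPPRC, up to 3 called genes per nuclear list with the largest change, and nuclear copies with at least 1% of the parent's reads. Markers and PPARGC1A were named besides. Members and lists were chosen with earlier results of these data known. Gene positions and sequences are from GENCODE 29 (GRCh38, the same assembly as hg38), and nuclear genes were matched by symbol or older symbol. The scripts were tested on simulated data. Alternatives were DESeq2 1.42.0, other scalings and filters, other thresholds, a replicate block and leaving out each culture. Python 3.11.15, numpy 2.4.6, pandas 2.3.3, scipy 1.17.1 and biopython 1.88 were used, and figures were drawn with matplotlib 3.10.9.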

Additional observations from a re-analysis of the deposited data

How the results depend on the processing

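The 11 mRNAs called lower, MT-RNR2 and MT-TP kept their direction and their side of the threshold in all 14 alternatives that scaled by the libraries, with values of -0.66 to -0.57 for MT-ND4L, -0.40 to -0.36 for MT-CO1 and 0.23 to 0.26 for MT-RNR2. The largest adjusted p among them was 0.0272, for MT-ND1. With the mitochondrial mRNA counts as the library size, 1 mRNA was called higher, 2 lower and 2 rRNAs higher, and the values were 0.31 for MT-RNR1, 0.10 for MT-ND1, 0.17 for MT-ND2, 0.047 for MT-ATP6, 0.076 for MT-ND5 and 0.00036 for MT-CYB. With a fold above 1.5 at an unadjusted p under 0.05 or under 0.001, 1 mRNA was lower, 0 rRNAs were higher, and 1 nuclear gene was higher and 5 lower; the change in count follows from the added limit on fold. With no filter MT-ND2 passed the test (-0.16, adjusted p = 0.0122).

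With each culture left out in turn, MT-RNR1 ranged from -0.028 to 0.027, LRPPRC from -0.058 to 0.050, the difference in light-strand reads per 100 heavy-strand mRNA reads from -0.125 to 0.011 and that in MT-ND6 reads from -0.0684 to 0.052. MT-RNR1 was 0.0048 with DESeq2 and with median-of-ratios size factors, and above 0 without siControl replicate 1 or siZEB1 replicate 1. LRPPRC was 0.0074 with DESeq2 and with median-of-ratios size factors, 0.00086 with at least 10 counts in every culture, 0.0022 with the replicate block and above 0 without siControl replicate 1 or 2 or siZEB1 replicate 1 or 2. The rRNA share differed by -0.00087 percentage points once MT-RNR2 was left out. The strand differences were above 0 without siControl replicate 1. The number of nuclear genes called lower was 16, and 10 to 14 with each culture left out, with 10 without siZEB1 replicate 1 or 2. The number called higher was 9, and 6 to 11 with each left out, with 6 without siControl replicate 2. The cause of these changes was not tested.

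The replicate numbers did not pair the cultures: deviations of same-numbered cultures correlated at -0.078, -0.12 and -0.28, and no culture correlated best with its own number. With the number as a block, 11 mRNAs were called lower and 9 nuclear genes, the calls of TRNT1 (adjusted p = 0.0783), GRSF1 (0.169), MRM1 (0.0724) and GABPB1 (0.0914) were lost, and 2289 genes of all tested were higher and 2679 lower, against 2849 and 3186. Depth limits only MT-ATP8 among the 16 transcripts.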
